A study of Mus musculus with 6 samples.

Results

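Goblet cells, the mucus-secreting cells of the intestinal epithelium, were picked out of 4 colon single-cell RNA libraries made from IL-34-/- and wild-type (WT) mice that had received a transplant. Their members were chosen on unique molecular identifiers (UMIs), each of which stands for 1 captured mRNA molecule. Barcodes entered with 500 or more detected genes and no more than 10% of UMIs from mitochondrial genes. A barcode was called a goblet cell with at least 3 UMIs of Epcam, Krt8 and Krt19 together, at least 10 UMIs of Muc2, Clca1 and Fcgbp together, 0 UMIs of Csf1r and Ptprc, and at most 1 UMI of Mki67 and Top2a together. This gave 336 goblet cells among 34369 kept barcodes, of 50562 barcodes in these 4 libraries and 60605 in the 6 libraries of the series. The macrophage-sort libraries held 77 goblet cells in the one labelled IL34KO and 45 in the WT one, and the T-cell-sort libraries held 110 in the one labelled IL34KO and 104 in the WT one.

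Goblet cells descend from crypt stem cells and secrete the gel that keeps bacteria away from the colon surface. The gel is built on the mucin MUC2, which is folded and cross-linked in the endoplasmic reticulum with the help of AGR2, loaded with O-linked sugar chains in the Golgi, stored in granules and released together with smaller proteins such as FCGBP, CLCA1, ZG16 and TFF3. Notch signalling holds the fate back, and ATOH1 and SPDEF drive it. In graft-versus-host disease, where T cells of the graft injure the host, the colon epithelium is a main target and goblet cell loss is a known feature. IL-34, the protein named in the label, is a ligand of the macrophage growth factor receptor CSF1R.

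The start of Muc2 is shown because MUC2 defines these cells and its gene is part of the gate that chose them. The window below is the RefSeq sequence of GRCm38.p6, chr7:141690090-141690389 on the plus strand, with 250 bases before and 50 bases from the annotated start.
Muc2 promoter: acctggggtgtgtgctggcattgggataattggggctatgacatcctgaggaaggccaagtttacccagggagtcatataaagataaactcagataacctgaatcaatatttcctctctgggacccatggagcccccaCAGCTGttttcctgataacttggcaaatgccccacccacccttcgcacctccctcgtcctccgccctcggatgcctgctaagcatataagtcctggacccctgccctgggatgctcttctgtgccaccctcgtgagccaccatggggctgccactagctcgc
The capitals mark the letters CAGCTG, an E-box of the kind that ATOH1 and other basic helix-loop-helix factors can bind. They occur at 1 place here, beginning 112 bases before the start (position -112), and read the same on both strands. Of 32851 promoter windows of this length, 5355 (16.3%) hold these letters, so the match is a description and not a site.

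The groups were 1 library each. The libraries labelled IL34KO came from recipients given as IL-34-/- and the WT libraries from wild-type recipients. In each recipient type 1 library had been sorted for macrophages of donor origin (CD11b+ CD64+) and 1 for donor T cells, all from colon. Goblet cells lie outside the aim of both sorts, and in a marrow transplant they belong to the recipient, so the label gives their own genotype. For these groups the strain, age, sex, allele, donors, time after transplant, number of pooled animals and whether spleen cells were added to the marrow are not given in the sources used here. With 1 library per group there is no replicate check and no test. Levels are UMIs of a gene per 1000000 UMIs summed over the goblet cells of a library (CPM), and each fold is given with a 95% interval that covers counting error only. The same comparison could be made in the macrophage sort and in the T-cell sort. These sorts were not treated as replicates, since it is not given whether they shared animals.

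Il34 itself had 3 UMIs in goblet cells of the macrophage-sort library labelled IL34KO and 1 in its WT partner, and 2 UMIs in the T-cell-sort library labelled IL34KO and 3 in its WT partner. In other epithelial cells, which pass the same gates with at most 2 UMIs of Muc2, Clca1 and Fcgbp, it stood at 7.39 CPM labelled IL34KO against 2.93 CPM WT in the macrophage sort and at 5.67 CPM labelled IL34KO against 4.06 CPM WT in the T-cell sort. Counts of 1 to 3 UMIs give no direction in goblet cells. In other epithelial cells the Il34 level was not lower under the label IL34KO in either sort, but these levels carry no interval. The WT macrophage-sort level of 2.93 CPM stands on 1022598 UMIs of all genes, and so on few of Il34. No direction is read from the other epithelial cells either. Which part of the gene the allele lacks is not given, so counts elsewhere in the gene check nothing, and every comparison below is between libraries by their labels. Xist had 0 UMIs in the goblet cells of all 4 libraries and the Y-linked Ddx3y stood between 67.7 and 95.3 CPM in them.

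The goblet cells summed to 1324061 UMIs labelled IL34KO and 989593 UMIs WT in the macrophage sort, and to 1102324 UMIs labelled IL34KO and 1259738 UMIs WT in the T-cell sort. The median cell had 15305 UMIs labelled IL34KO and 20877 UMIs WT in the macrophage sort, against 8994 UMIs labelled IL34KO and 10856 UMIs WT in the T-cell sort. The gate sum of Muc2, Clca1 and Fcgbp had a median of 203 UMIs labelled IL34KO and 149 UMIs WT in the macrophage sort, and of 104 UMIs labelled IL34KO and 103 UMIs WT in the T-cell sort. Of the goblet cells 20 held 10 to 14 UMIs, just inside the gate, while 34 epithelial cells held 5 to 9. Of the barcodes in these 4 libraries 598, counted once in each library that held them, also occurred in another of the 6 libraries of the series. Of the goblet cells 4 shared their barcode with a cell of another library, and 0 of those partners was a goblet cell.

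Of the 9 goblet markers 3 (Muc2, Clca1 and Fcgbp) are genes of the gate, which required them here and limited them in the other epithelial cells. The other 6 (Spink4, Tff3, Zg16, Agr2, Spdef and Atoh1) were not used by the gate, and each of the 9 was detected in at least 25% of the cells of each library. The summed level of the 9 was 46835 CPM labelled IL34KO and 42973 CPM WT in the macrophage sort, and 51034 CPM labelled IL34KO and 39869 CPM WT in the T-cell sort, against 357 to 694 CPM in other epithelial cells. The 8 absorptive colonocyte markers summed to 2599 CPM labelled IL34KO and 1986 CPM WT in the macrophage sort, and to 3230 CPM labelled IL34KO and 3423 CPM WT in the T-cell sort, below the 5484 to 17550 CPM of other epithelial cells. Tuft, B-cell and fibroblast markers summed to at most 2.02 CPM and the 8 enteroendocrine markers to at most 10.3 CPM. A separate list of 12 enteroendocrine genes, which holds Sct, summed to 86.1 CPM labelled IL34KO and 20.2 CPM WT in the macrophage sort. In the T-cell sort it summed to 77.1 CPM labelled IL34KO and 115 CPM WT. Other epithelial cells held 247 to 1618 CPM of it. Sct was found in 24.7% of goblet cells labelled IL34KO and 26.7% WT in the macrophage sort, and in 22.7% labelled IL34KO and 18.3% WT in the T-cell sort. T-cell markers summed to at most 12.7 CPM and stem cell markers to at most 33.3 CPM. The 7 macrophage markers summed to 259 CPM labelled IL34KO and 185 CPM WT in the macrophage sort, and to 299 CPM labelled IL34KO and 302 CPM WT in the T-cell sort, which is 1.14% to 1.92% of their level in the immune cells of the same libraries. Of these 7, Csf1r was at 0 in every library by the gate. The 3 neutrophil markers summed to 65 CPM labelled IL34KO and 18.2 CPM WT in the macrophage sort, and to 1.81 CPM labelled IL34KO and 0 CPM WT in the T-cell sort. The 4 deep crypt secretory markers, of which Agr2 and Spink4 are also goblet markers, summed to 23937 CPM labelled IL34KO and 23582 CPM WT in the macrophage sort, and to 21104 CPM labelled IL34KO and 22245 CPM WT in the T-cell sort, against 349 to 652 CPM in other epithelial cells. Markers chosen by the gate, and any gene that separates the cells so chosen, describe the gate and are no finding.

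Genes outside the gate that stood far above other epithelial cells describe the cells further. Spdef stood at 236 CPM labelled IL34KO and 275 CPM WT in the macrophage sort and at 270 CPM labelled IL34KO and 211 CPM WT in the T-cell sort, against at most 2.98 CPM in other epithelial cells. Atoh1 stood at 118 CPM labelled IL34KO and 136 CPM WT in the macrophage sort and at 161 CPM labelled IL34KO and 123 CPM WT in the T-cell sort, against at most 1 CPM. Others were Slc12a8, Ramp1, a subunit of the CGRP receptor, Rep15, Hepacam2, Bcas1, Sytl2, a granule-docking protein, Klk1, Ccl6 and Tpsg1. On the other side, Car1, a carbonic anhydrase of surface colonocytes, averaged 637 CPM over goblet cells of the 4 libraries and 7526 CPM over other epithelial cells, and Reg3b averaged 113 CPM over goblet cells and 2461 CPM over other epithelial cells.

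Goblet cells were 25.5% (20.7 to 30.8) of the 302 epithelial cells in the macrophage-sort library labelled IL34KO and 35.2% (26.9 to 44.1) of the 128 in its WT partner. In the T-cell sort they were 18.9% (15.8 to 22.3) of 582 labelled IL34KO and 20.6% (17.2 to 24.4) of 504 WT, with exact binomial intervals. The intervals overlapped in both sorts. With every epithelial cell thinned to 2000 UMIs and shallower cells left out, the shares were 25.3% labelled IL34KO and 29.6% WT in the macrophage sort, and 20.9% labelled IL34KO and 17.4% WT in the T-cell sort. The same cells without thinning gave 31.1% labelled IL34KO and 43.9% WT, and 24% labelled IL34KO and 22.7% WT. The macrophage-sort share was thus lower labelled IL34KO than WT in each of these versions, while the T-cell-sort order turned round once shallow cells were left out, and neither difference was tested. The sorts, which aim at other cells, set how many epithelial cells were captured, and their part in the shares was not tested.

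Agr2, the disulfide isomerase that MUC2 needs, stood at 12457 CPM labelled IL34KO against 13168 CPM WT in the macrophage sort and at 14701 CPM labelled IL34KO against 12972 CPM WT in the T-cell sort. Its folds were 0.946 and 1.13. Muc2 stood at 15788 CPM labelled IL34KO against 11880 CPM WT in the macrophage sort, and at 17864 CPM labelled IL34KO against 11367 CPM WT in the T-cell sort. It was higher under the label IL34KO in both sorts, 1.33-fold (1.3 to 1.36) and 1.57-fold (1.54 to 1.61), and Muc2 is also a gene of the gate.

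Clca1, a secreted metalloprotease that processes the mucus, and Fcgbp, an IgG-Fc-binding partner of MUC2, are the other genes of the gate. Clca1 stood at 1559 CPM labelled IL34KO against 917 CPM WT in the macrophage sort and at 1022 CPM labelled IL34KO against 887 CPM WT in the T-cell sort, and its macrophage-sort log2 ratio turned to -0.19 under stricter barcode filters. Fcgbp stood at 1059 CPM labelled IL34KO against 866 CPM WT in the macrophage sort and at 1364 CPM labelled IL34KO against 910 CPM WT in the T-cell sort, and its macrophage-sort log2 ratio turned to -0.43 under the same filters.

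Among products outside the gate, Tff3, Retnlb and Spink1 were higher in both sorts. Tff3, a trefoil peptide that supports repair of the epithelium, stood at 2625 CPM labelled IL34KO against 1253 CPM WT in the macrophage sort, 2.1-fold higher (1.96 to 2.24), and at 1867 CPM labelled IL34KO against 1333 CPM WT in the T-cell sort, 1.4-fold higher (1.31 to 1.49). Retnlb, the antibacterial resistin-like protein RELMβ, stood at 3109 CPM labelled IL34KO against 2128 CPM WT in the macrophage sort, 1.46-fold higher (1.39 to 1.54), and at 3886 CPM labelled IL34KO against 2391 CPM WT in the T-cell sort, 1.63-fold higher (1.55 to 1.7). Under stricter barcode filters the macrophage-sort log2 ratio of Retnlb turned to -0.17. Spink1, a trypsin inhibitor, stood at 1033 CPM labelled IL34KO against 536 CPM WT in the macrophage sort and at 503 CPM labelled IL34KO against 306 CPM WT in the T-cell sort, 1.93-fold (1.74 to 2.14) and 1.64-fold (1.44 to 1.88) higher. The share of cells with a Spink1 UMI was 31.2% labelled IL34KO against 40% WT in the macrophage sort. In the T-cell sort it was 36.4% labelled IL34KO against 28.8% WT.

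Other products were lower under the label IL34KO in 1 sort or both. Zg16, a lectin that aggregates Gram-positive bacteria in the mucus, stood at 2333 CPM labelled IL34KO against 5053 CPM WT in the macrophage sort, 2.17-fold lower (2.07 to 2.27). It stood at 7775 CPM labelled IL34KO against 3582 CPM WT in the T-cell sort, 2.17-fold higher (2.09 to 2.25). Few cells held these UMIs, as the 3 highest cells held 63.1% of the Zg16 UMIs labelled IL34KO and 68% WT in the macrophage sort, and 43.1% labelled IL34KO and 33.8% WT in the T-cell sort. With goblet cells limited to at most 2 UMIs of 10 immune genes, which left 15 cells labelled IL34KO and 14 WT in the macrophage sort, the Zg16 log2 ratio there turned to 1.19. Spink4, a small secreted peptide found in nearly every goblet cell, stood at 10659 CPM labelled IL34KO against 9426 CPM WT in the macrophage sort and at 6010 CPM labelled IL34KO against 8484 CPM WT in the T-cell sort, where it was 1.41-fold lower (1.37 to 1.46). Reg4, a lectin of deep crypt secretory cells, stood at 699 CPM labelled IL34KO against 888 CPM WT in the macrophage sort and at 275 CPM labelled IL34KO against 711 CPM WT in the T-cell sort, 2.59-fold lower (2.27 to 2.96) in the second. Mptx1, a mucosal pentraxin, stood at 3629 CPM labelled IL34KO against 3917 CPM WT in the macrophage sort and at 2027 CPM labelled IL34KO against 2748 CPM WT in the T-cell sort. Ang4, an antimicrobial ribonuclease, stood at 428 CPM labelled IL34KO and 604 CPM WT in the macrophage sort, with 60.8% of its UMIs labelled IL34KO and 87.3% WT in 3 cells, and at 243 CPM labelled IL34KO and 181 CPM WT in the T-cell sort.

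**Figure D1:**
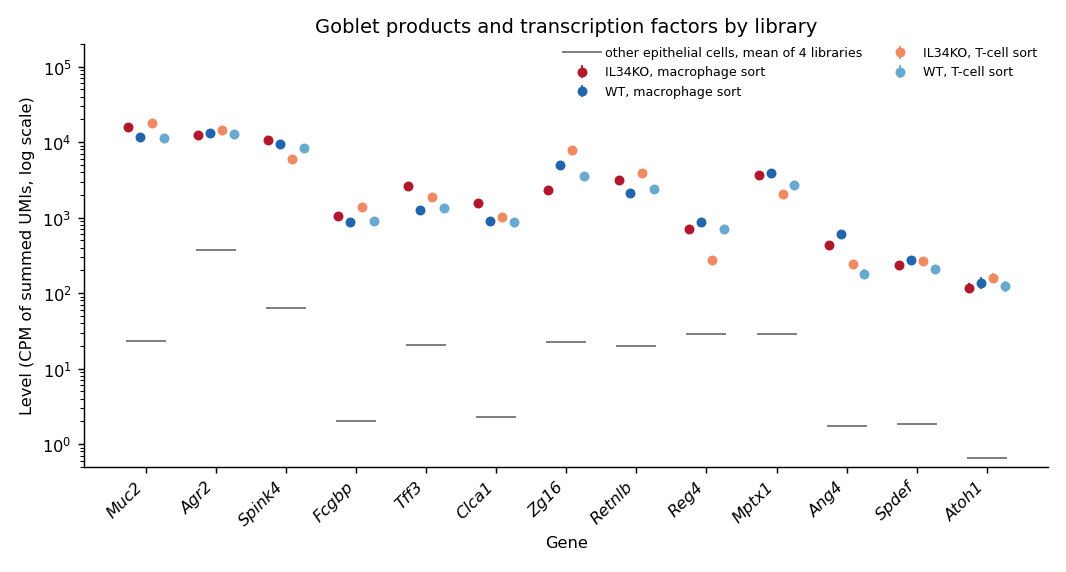
Level of 11 secreted products and of the transcription factors Spdef and Atoh1 in goblet cells (CPM of summed UMIs, log axis), with 1 point per library, 95% Poisson intervals that are mostly smaller than the points, and grey lines at the mean of other epithelial cells. Muc2, Tff3 and Retnlb lie higher in both libraries labelled IL34KO (red and orange) than in their WT partners (dark and light blue), while Zg16 changes places between the sorts. Muc2, Clca1 and Fcgbp are genes of the gate that chose the cells. The macrophage-sort direction of Retnlb turned round under stricter barcode filters.

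Of the 47 listed goblet products 41 were measured, meaning that either library compared reached 5 CPM. In the macrophage sort 5 were at least 1.5-fold higher and 4 at least 1.5-fold lower under the label IL34KO, where 12.2% of all 10351 measured genes were higher and 11.8% lower. The median log2 ratio was -0.04 (-0.28 to 0.07, the medians of the members' lower and upper bounds), against 0.01 for all measured genes. In the T-cell sort 9 of 41 were higher and 2 lower, where 15.5% of all 10269 measured genes were higher and 9.85% lower, and the median was 0.33 (0.08 to 0.67) against 0.07 for all genes. The list holds the 3 gate genes, of which Clca1 is among the higher members in the macrophage sort and Muc2 in the T-cell sort. Without the gate genes, a version chosen after seeing the data, 4 of 38 were higher and 4 lower in the macrophage sort, with a median of -0.083, and 8 of 38 were higher and 2 lower in the T-cell sort, with a median of 0.33. Bcas1, which goblet cells hold far above other epithelial cells, stood at 203 CPM labelled IL34KO against 202 CPM WT in the macrophage sort and at 323 CPM labelled IL34KO against 169 CPM WT in the T-cell sort, 1.91-fold higher (1.61 to 2.27) in the T-cell sort. Rab27a, a GTPase that docks secretory granules, stood at 46.8 CPM labelled IL34KO against 39.4 CPM WT in the macrophage sort and at 88 CPM labelled IL34KO against 38.9 CPM WT in the T-cell sort, 2.26-fold higher (1.59 to 3.26) there. Fer1l6 reached 246 CPM labelled IL34KO against 130 CPM WT in the T-cell sort, and 140 CPM labelled IL34KO against 184 CPM WT in the macrophage sort. Ccl9, a chemokine, stood at 107 CPM labelled IL34KO against 46.5 CPM WT in the macrophage sort, and had 82.6 CPM labelled IL34KO and 79.4 CPM WT in the T-cell sort. Immune cells held more Ccl9, between 272 and 373 CPM, and their part in the goblet value was not tested.

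Enzymes that put sugars on mucin came next. Of 51 listed, 48 were measured. In the macrophage sort 1 was at least 1.5-fold higher and 4 lower under the label IL34KO, with a median log2 ratio of 0.01 (-0.26 to 0.32), and in the T-cell sort 8 were higher and 4 lower, with a median of 0.18 (-0.06 to 0.58). As shares these are 2.08% higher and 8.33% lower in the macrophage sort, each under the 12.2% and 11.8% of all measured genes, and 16.7% higher and 8.33% lower in the T-cell sort, close to the 15.5% and 9.85% of all measured genes. The T-cell-sort genes that were higher included C1galt1c1 (Cosmc), the chaperone of core 1 O-glycan synthesis, at 165 CPM labelled IL34KO against 80.2 CPM WT, 2.06-fold (1.61 to 2.65). They also included Gcnt3, which branches core 2 and core 4 chains, at 365 CPM labelled IL34KO against 188 CPM WT, and Fut8, a fucosyltransferase, at 591 CPM labelled IL34KO against 353 CPM WT. Their macrophage-sort folds were 0.987, 0.905 and 1.08.

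B3gnt7, which extends keratan sulfate and related chains, stood at 115 CPM labelled IL34KO against 186 CPM WT in the macrophage sort, 1.62-fold lower (1.3 to 2.02), and at 56.2 CPM labelled IL34KO against 123 CPM WT in the T-cell sort, 2.19-fold lower (1.62 to 2.99). Gal3st2c, annotated as a galactose sulfotransferase, stood at 22.7 CPM labelled IL34KO against 43.5 CPM WT in the macrophage sort and at 11.8 CPM labelled IL34KO against 33.3 CPM WT in the T-cell sort. It was 1.92-fold (1.18 to 3.17) and 2.83-fold (1.49 to 5.74) lower, but with cells thinned to 2000 UMIs its log2 ratio was 0.0048 in the macrophage sort and 0.16 in the T-cell sort. Thinning draws UMIs at random. In another draw 8% of 75 cells labelled IL34KO and 11.6% of 43 WT had a Gal3st2c UMI in the macrophage sort. In the T-cell sort 1.09% of 92 cells labelled IL34KO and 5.83% of 103 WT had one. The thinned ratios thus rest on few UMIs and give no direction. In the other direction B4galnt2, which makes the Sda antigen of the colon, was 1.7-fold (1.32 to 2.2) and 1.5-fold (1.2 to 1.88) higher, at 153 CPM labelled IL34KO against 89.9 CPM WT in the macrophage sort and 171 CPM labelled IL34KO against 114 CPM WT in the T-cell sort.

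The folding machinery behind mucin stood close between the libraries. Of 50 measured genes of endoplasmic reticulum folding and the unfolded protein response in the macrophage sort, and 51 in the T-cell sort, 0 were at least 1.5-fold apart in either direction, with a median log2 ratio of 0.07 in both sorts. Of all measured genes 12.2% were higher and 11.8% lower in the macrophage sort, and 15.5% higher and 9.85% lower in the T-cell sort. Those shares include genes down to 5 CPM, where counting error is larger. The folding list summed to between 14778 and 15637 CPM in a library, and the part of level in its count was not tested. Ern2, the stress sensor IRE1β of goblet cells, stood at 177 CPM labelled IL34KO against 178 CPM WT in the macrophage sort and at 185 CPM labelled IL34KO against 147 CPM WT in the T-cell sort. Hspa5, the chaperone BiP, stood at 1360 CPM labelled IL34KO against 1263 CPM WT in the macrophage sort and at 1307 CPM labelled IL34KO against 1452 CPM WT in the T-cell sort. The goblet transcription factors are to be read against the same all-gene shares. Of 24 measured in the macrophage sort 2 were higher and 0 lower, and of 23 in the T-cell sort 0 were higher and 0 lower. Klf4, which goblet maturation needs, had folds of 0.97 and 0.854, with 560 CPM labelled IL34KO against 578 CPM WT in the macrophage sort and 753 CPM labelled IL34KO against 882 CPM WT in the T-cell sort.

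With a floor of 20 CPM in 1 of the libraries compared, 99 of 6722 genes (1.47%) were at least 2-fold higher and 71 (1.06%) at least 2-fold lower under the label IL34KO in the macrophage sort, and 161 of 6714 (2.4%) were higher and 84 (1.25%) lower in the T-cell sort. Scaling moved the T-cell-sort split, which was 128 higher and 112 lower with TMM and 129 higher and 111 lower with median-of-ratios size factors, against 99 and 71, and 98 and 72, in the macrophage sort. With cells thinned to 2000 UMIs 854 were higher and 1059 lower in the macrophage sort, and 994 higher and 602 lower in the T-cell sort. In cells limited in immune UMIs 903 were higher and 1043 lower in the macrophage sort, and 603 higher and 304 lower in the T-cell sort. The thinned counts stand on 75 cells labelled IL34KO and 43 WT in the macrophage sort. In the T-cell sort they stand on 92 and 103. The immune limit left 15 cells labelled IL34KO and 14 WT in the macrophage sort. Fewer UMIs stand behind 20 CPM in such sums, so counting error is larger. The number of genes tested is not given for either version, so these counts are no shares. Of 6335 genes measured in both sorts 7 were at least 2-fold higher in both (Ido1, Slfn4, Reg3g, Dpf3, Chm, Ubxn6 and 4930447F24Rik) and 1 was at least 2-fold lower in both (Pcdh17). A further 8 were higher in the macrophage sort and lower in the T-cell sort, and 4 the other way round. The counts also move with the level floor, the barcode filters and the weighting of cells.

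**Figure D2:**
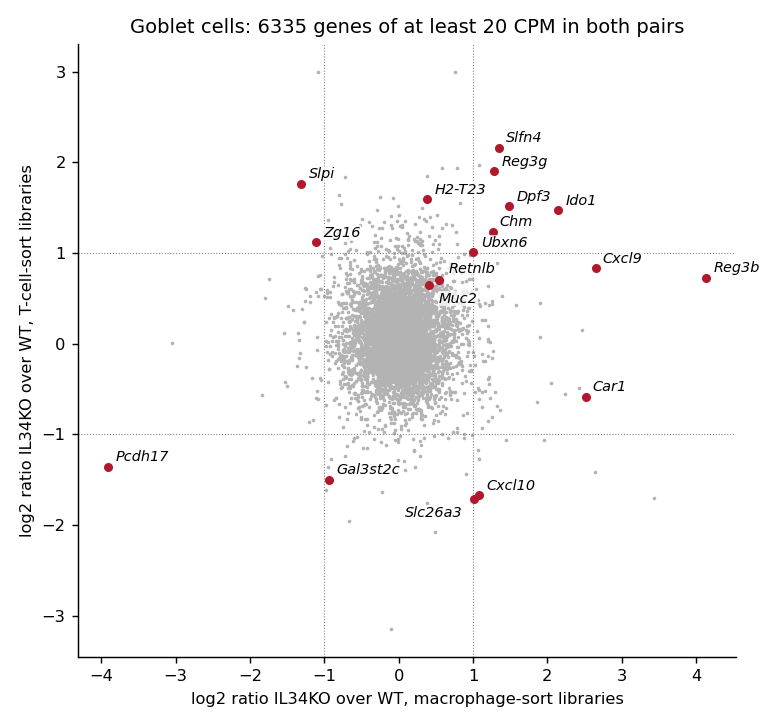
Log2 ratio of goblet-cell levels, labelled IL34KO over WT, in the macrophage-sort libraries (horizontal axis) and the T-cell-sort libraries (vertical axis) for 6335 genes, with dotted lines at 2-fold. Ido1 and Slfn4 lie past 2-fold in both sorts at the upper right, Pcdh17 at the lower left, and Zg16, Slpi and Cxcl10 past 2-fold in opposite directions.

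Ido1 is the interferon-induced enzyme that turns tryptophan into kynurenine. It led the named genes that were higher in both sorts, ranked by the smaller log2 ratio with 5 CPM added. It lies at mm10 chr8:24584136-24597009 on the minus strand and stood at 519 CPM labelled IL34KO against 117 CPM WT in the macrophage sort, 4.43-fold higher (3.63 to 5.44), and at 632 CPM labelled IL34KO against 228 CPM WT in the T-cell sort, 2.78-fold higher (2.42 to 3.2). With the 3 highest cells of each library left out the folds were 4.51 and 2.71, although these cells held 48.6% of the UMIs labelled IL34KO and 50.9% WT in the macrophage sort, and 34.7% labelled IL34KO and 32.4% WT in the T-cell sort. In cells thinned to 2000 UMIs, 36% (25.2 to 47.9) of 75 goblet cells labelled IL34KO and 14% (5.3 to 27.9) of 43 WT had an Ido1 UMI in the macrophage sort, and 34.8% (25.1 to 45.4) of 92 labelled IL34KO and 19.4% (12.3 to 28.4) of 103 WT in the T-cell sort. The intervals of the labelled and WT shares overlapped in both sorts. Without thinning the shares were 49.4% labelled IL34KO and 42.2% WT, and 41.8% labelled IL34KO and 39.4% WT. Immune cells thinned the same way had an Ido1 UMI in 0.0515% to 0.549% of cells. Other epithelial cells held less Ido1 than goblet cells, at 33.7 CPM labelled IL34KO against 27.4 CPM WT in the macrophage sort and 73.7 CPM labelled IL34KO against 45.7 CPM WT in the T-cell sort.

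**Figure D3:**
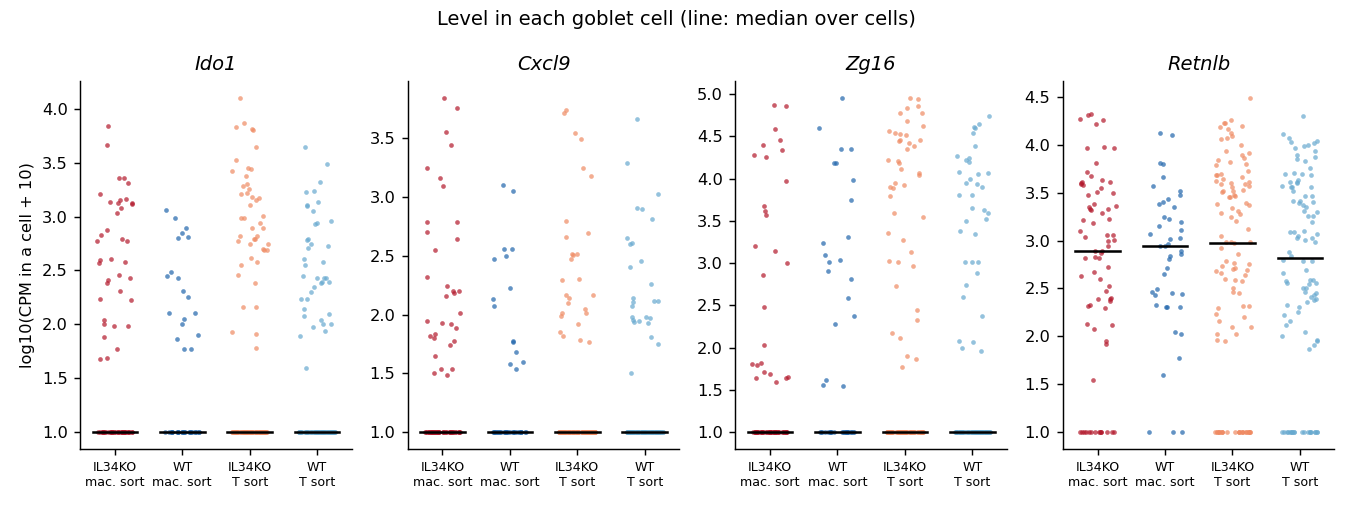
Level of Ido1, Cxcl9, Zg16 and Retnlb in each goblet cell (log10 of CPM in the cell plus 10) by library, with a line at the median over cells. In each library under 50% of the cells hold a UMI of Ido1, Cxcl9 or Zg16, so the summed levels rest on a minority of cells, while 78.2% to 93.3% hold Retnlb.

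Slfn4, a schlafen protein known from interferon-responsive myeloid cells, stood at 69.5 CPM labelled IL34KO against 27.3 CPM WT in the macrophage sort, 2.55-fold higher (1.64 to 4.07), and at 85.3 CPM labelled IL34KO against 19.1 CPM WT in the T-cell sort, 4.48-fold higher (2.83 to 7.33). Immune cells of the macrophage sort held 77.7 CPM labelled IL34KO against 36 CPM WT, a difference in the same direction, and immune cells of the T-cell sort held 5.28 CPM labelled IL34KO and 4.3 CPM WT. The part of free immune RNA in the macrophage-sort value was not tested. The goblet level of the T-cell sort was above the immune level in both libraries. Other epithelial cells showed the same order there, at 180 CPM labelled IL34KO against 74.1 CPM WT.

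Reg3b and Reg3g, lectins that bind bacterial walls and that inflamed enterocytes make, were also higher, and goblet cells held less of either than other epithelial cells did. Reg3b stood at 285 CPM labelled IL34KO against 16.2 CPM WT in the macrophage sort, 17.6-fold higher (10.7 to 31.1), and at 93.4 CPM labelled IL34KO against 56.4 CPM WT in the T-cell sort, 1.66-fold higher (1.21 to 2.28). Other epithelial cells held 7462 CPM labelled IL34KO against 927 CPM WT in the macrophage sort and 724 CPM labelled IL34KO against 733 CPM WT in the T-cell sort. In the macrophage sort the immune cells followed, at 42.4 CPM labelled IL34KO against 8.36 CPM WT, and the 3 highest goblet cells held 78.8% of the Reg3b UMIs labelled IL34KO and 81.2% WT. Without the 3 highest cells of each library Reg3b was 20.1-fold and 5.18-fold higher. These folds carry no interval, and the macrophage-sort one stands on the few WT UMIs left outside those cells. Reg3g stood at 46.8 CPM labelled IL34KO against 19.2 CPM WT in the macrophage sort and at 74.4 CPM labelled IL34KO against 19.8 CPM WT in the T-cell sort, 2.44-fold (1.44 to 4.32) and 3.75-fold (2.37 to 6.12) higher. The macrophage-sort direction of Reg3g turned round with cells weighted equally, thinned to 2000 UMIs or filtered less strictly. The part of RNA from other epithelial cells in these values was not tested.

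Of the remaining genes that were higher in both sorts, Dpf3, a subunit of a chromatin remodelling complex, stood at 22.7 CPM labelled IL34KO against 8.08 CPM WT in the macrophage sort and at 27.2 CPM labelled IL34KO against 9.53 CPM WT in the T-cell sort, 2.8-fold (1.26 to 7.08) and 2.86-fold (1.42 to 6.13) higher on no more than 30 UMIs a library. Npas2, a partner of BMAL1 in the circadian clock, stood at 58.9 CPM labelled IL34KO against 30.3 CPM WT in the macrophage sort and at 58.1 CPM labelled IL34KO against 29.4 CPM WT in the T-cell sort. It was 1.94-fold (1.26 to 3.07) and 1.98-fold (1.3 to 3.05) higher, and other epithelial cells had it in the same order, at 38.6 CPM labelled IL34KO against 19.6 CPM WT in the macrophage sort and 67.3 CPM labelled IL34KO against 33.5 CPM WT in the T-cell sort. The Dpf3 ratio in the macrophage sort turned to -0.58 with cells weighted equally. Chm, an escort protein for RAB prenylation, had 34 CPM labelled IL34KO against 14.1 CPM WT in the macrophage sort and 29.9 CPM labelled IL34KO against 12.7 CPM WT in the T-cell sort. Ubxn6, a cofactor of the ATPase VCP, was 2.01-fold (1.11 to 3.82) and 2.02-fold (1.08 to 3.9) higher, and its macrophage-sort log2 ratio turned to -2.04 in the cells limited in immune UMIs. Tapbpl, Tasor and Fabp6 completed the 12 genes named for being higher in both sorts, at 1.7-fold to 2.49-fold.

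Pcdh17, a protocadherin of cell adhesion, stood at 3.78 CPM labelled IL34KO against 56.6 CPM WT in the macrophage sort, on 5 UMIs labelled IL34KO and 56 WT, and at 25.4 CPM labelled IL34KO against 65.1 CPM WT in the T-cell sort, on 28 UMIs labelled IL34KO and 82 WT. It was 15-fold (6.05 to 47.9) and 2.56-fold (1.65 to 4.09) lower, and UMIs were found in 2.6% of goblet cells labelled IL34KO against 20% WT in the macrophage sort and in 7.27% labelled IL34KO against 29.8% WT in the T-cell sort. In cells thinned to 2000 UMIs these shares were 0% (0 to 4.8) of 75 labelled IL34KO against 6.98% (1.46 to 19.1) of 43 WT in the macrophage sort and 3.26% (0.678 to 9.24) of 92 labelled IL34KO against 13.6% (7.63 to 21.8) of 103 WT in the T-cell sort, with overlapping intervals. Other epithelial cells went the same way, at 10.3 CPM labelled IL34KO against 33.2 CPM WT in the macrophage sort and at 13.3 CPM labelled IL34KO against 35.7 CPM WT in the T-cell sort, and immune cells held at most 0.855 CPM. Hoxb13, a marker of the distal colon, stood at 55.1 CPM labelled IL34KO against 90.9 CPM WT in the macrophage sort and at 49.9 CPM labelled IL34KO against 81 CPM WT in the T-cell sort, 1.65-fold (1.2 to 2.28) and 1.62-fold (1.16 to 2.3) lower. Mt2, a metallothionein, stood at 39.3 CPM labelled IL34KO against 63.7 CPM WT in the macrophage sort and at 32.7 CPM labelled IL34KO against 57.9 CPM WT in the T-cell sort. Per2, a repressor of the circadian clock, stood at 19.6 CPM labelled IL34KO against 43.5 CPM WT in the macrophage sort and at 17.2 CPM labelled IL34KO against 31 CPM WT in the T-cell sort, 2.21-fold (1.33 to 3.75) and 1.8-fold (1.01 to 3.29) lower. Timp3, an inhibitor of matrix proteases, was 1.97-fold (1.35 to 2.89) and 3.06-fold (1.58 to 6.39) lower, with 75% to 90.3% of its UMIs in the 3 highest cells of a library. Mpzl3, Esrrg, Slc5a3, Them4 and Pim1, with Gal3st2c and B3gnt7 given above, completed the 12 genes named for being lower, at 1.64-fold to 2.57-fold for these 5. Several of these turned under 1 alternative or more: Hoxb13 to a log2 ratio of 0.54 in the macrophage sort, and Mt2 to 0.18 and Per2 to 0.078 in the T-cell sort, in the cells limited in immune UMIs, Timp3 to 0.46 in the macrophage sort under stricter barcode filters, and Per2 to 0.58 in the T-cell sort with thinned cells. Thinning draws UMIs at random, and the thinned Per2 value rests on few of them. In another draw 5.43% of 92 T-cell-sort cells labelled IL34KO and 12.6% of 103 WT had a Per2 UMI. Pcdh17 stayed lower in every alternative that gave it a value.

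Ido1 belongs to the genes induced by interferon-γ, the signature cytokine of graft-versus-host disease, so the listed genes of that response were read next. The list and its counts include Ido1 and Cxcl9, which were already named for being higher in both sorts. In the macrophage sort 15 of 38 measured members were at least 1.5-fold higher and 0 lower under the label IL34KO, with a median log2 ratio of 0.43 (-0.13 to 0.88). In the T-cell sort 9 of 37 were higher and 8 lower, with a median of 0.19 (-0.34 to 0.46). Of all measured genes 12.2% were higher and 11.8% lower in the macrophage sort, and 15.5% higher and 9.85% lower in the T-cell sort, against 39.5% and 0% of these members, and 24.3% and 21.6%. Cxcl9, a chemokine that draws T cells, stood at 418 CPM labelled IL34KO against 66.7 CPM WT in the macrophage sort, 6.27-fold higher (4.85 to 8.23), and at 222 CPM labelled IL34KO against 125 CPM WT in the T-cell sort, 1.78-fold higher (1.45 to 2.19). Without the 3 highest cells the folds were 4.88 and 1.14, so the T-cell-sort value rests on those cells. Immune cells held more Cxcl9 than goblet cells, at 1309 CPM labelled IL34KO and 1118 CPM WT in the macrophage sort and 800 CPM labelled IL34KO and 955 CPM WT in the T-cell sort, and the part of free or attached immune RNA was not tested. In the cells limited in immune UMIs the macrophage-sort log2 ratio of Cxcl9 turned to -1.16 and that of Cxcl10 to -2.26.

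Its relative Cxcl10 went opposite ways. It stood at 150 CPM labelled IL34KO against 70.7 CPM WT in the macrophage sort, 2.11-fold higher (1.6 to 2.82), and at 45.4 CPM labelled IL34KO against 144 CPM WT in the T-cell sort, 3.19-fold lower (2.32 to 4.45). Ubd, a ubiquitin-like protein induced by interferon-γ and TNF, stood at 100 CPM labelled IL34KO against 24.3 CPM WT in the macrophage sort and at 84.4 CPM labelled IL34KO against 114 CPM WT in the T-cell sort. Gbp2, a guanylate-binding protein, was 1.56-fold (1.25 to 1.96) and 1.53-fold (1.19 to 1.96) higher, at 184 CPM labelled IL34KO against 118 CPM WT in the macrophage sort and 141 CPM labelled IL34KO against 92.1 CPM WT in the T-cell sort. Under stricter barcode filters the Gbp2 log2 ratio turned to -0.17 in both sorts, and immune cells held 471 to 804 CPM of it. Gbp3 was 1.97-fold (1.19 to 3.38) and 1.49-fold (0.924 to 2.42) higher. Irf1, a transcription factor of the response, stood at 236 CPM labelled IL34KO against 216 CPM WT in the macrophage sort and at 222 CPM in both libraries of the T-cell sort.

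MHC class I genes, which present peptides to CD8 T cells, had medians above 0 in both sorts. Of 21 measured 4 were at least 1.5-fold higher and 0 lower in the macrophage sort, with a median log2 ratio of 0.22 (-0.14 to 0.66) that stood at -0.14 under stricter barcode filters, and 5 were higher and 1 lower in the T-cell sort, with a median of 0.33 (-0.02 to 0.67). The higher members are 19% in the macrophage sort and 23.8% in the T-cell sort, where 12.2% and 15.5% of all measured genes were higher. H2-T23, the class Ib molecule Qa-1 that NKG2 receptors read, stood at 162 CPM labelled IL34KO against 124 CPM WT in the macrophage sort, 1.31-fold higher (1.04 to 1.64), and at 340 CPM labelled IL34KO against 113 CPM WT in the T-cell sort, 3.02-fold higher (2.48 to 3.69). Other epithelial cells of the T-cell sort held 253 CPM labelled IL34KO against 83.9 CPM WT and immune cells 259 CPM labelled IL34KO against 173 CPM WT. Tap1, the peptide transporter, was 1.39-fold (1.08 to 1.79) and 1.3-fold (0.988 to 1.7) higher. MHC class II genes had medians of 0.14 (-0.16 to 0.46) and -0.18 (-0.52 to 0.15), and type I interferon genes of 0.12 (-0.65 to 0.81) and 0.19 (-0.39 to 0.93), in the macrophage sort and the T-cell sort.

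Genes of the crypt surface had opposite directions in the sorts. Of 26 measured absorptive colonocyte genes 11 were at least 1.5-fold higher and 1 lower under the label IL34KO in the macrophage sort, with a median log2 ratio of 0.3 (-0.06 to 0.7). In the T-cell sort 1 of 28 was higher and 11 were lower, with a median of -0.49 (-0.93 to -0.21). The list of surface and intercrypt goblet genes, which shares members with it, had 6 of 10 higher and 0 lower with a median of 1 (0.06 to 1.6) in the macrophage sort, and 0 of 11 higher and 5 lower with a median of -0.56 (-1.3 to -0.35) in the T-cell sort. Of all measured genes 12.2% were higher and 11.8% lower in the macrophage sort, and 15.5% higher and 9.85% lower in the T-cell sort. The directions of the colonocyte list turned with the cells kept, as its median was -0.62 in the macrophage sort under looser barcode filters, and 0.15 under stricter ones and 0.35 in cells limited in immune UMIs in the T-cell sort. Krt20, a keratin of mature surface cells, stood at 58.2 CPM labelled IL34KO against 29.3 CPM WT in the macrophage sort and at 112 CPM labelled IL34KO against 225 CPM WT in the T-cell sort. Car1 stood at 439 CPM labelled IL34KO against 76.8 CPM WT in the macrophage sort, 5.71-fold higher (4.49 to 7.36), and at 812 CPM labelled IL34KO against 1218 CPM WT in the T-cell sort, 1.5-fold lower (1.38 to 1.63). Slc26a3, the chloride and bicarbonate exchanger of surface cells, was 2.01-fold (1.04 to 4.14) higher in the macrophage sort and 3.27-fold (2.19 to 5.04) lower in the T-cell sort. Its macrophage-sort log2 ratio turned to -1.56 under looser and -0.086 under stricter barcode filters, and its T-cell-sort ratio to 0.26 in cells limited in immune UMIs.

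Other epithelial cells carried these genes at higher levels and in the same order, with Car1 at 6946 CPM labelled IL34KO against 3700 CPM WT in the macrophage sort and at 7177 CPM labelled IL34KO against 12281 CPM WT in the T-cell sort. Between 67.1% and 90.2% of the Car1 UMIs of goblet cells lay in the 3 highest cells of a library. The part of other epithelial RNA in these UMIs was not tested. Looser barcode filters turned the macrophage-sort log2 ratio of Car1 to -1.68 and of Krt20 to -0.95, and stricter ones turned the T-cell-sort ratio of Car1 to 1.18 and of Krt20 to 0.15. The direction of the surface goblet list in the macrophage sort turned round under 4 of 16 alternatives. Genes of oxidative phosphorylation also had opposite directions. The 37 members had a median log2 ratio of 0.23 (0.07 to 0.42) in the macrophage sort and -0.31 (-0.45 to -0.17) in the T-cell sort, with 0 at least 1.5-fold higher and at most 1 lower. Their summed level followed the same orders in immune cells, at 13631 CPM labelled IL34KO against 12073 CPM WT in the macrophage sort and 10987 CPM labelled IL34KO against 12353 CPM WT in the T-cell sort. In other epithelial cells it stood at 38240 CPM labelled IL34KO against 37672 CPM WT in the macrophage sort and at 32617 CPM labelled IL34KO against 39430 CPM WT in the T-cell sort. The part of these cells' RNA in the goblet values was not tested, and in cells limited in immune UMIs the macrophage-sort median was -0.053.

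**Figure D4:**
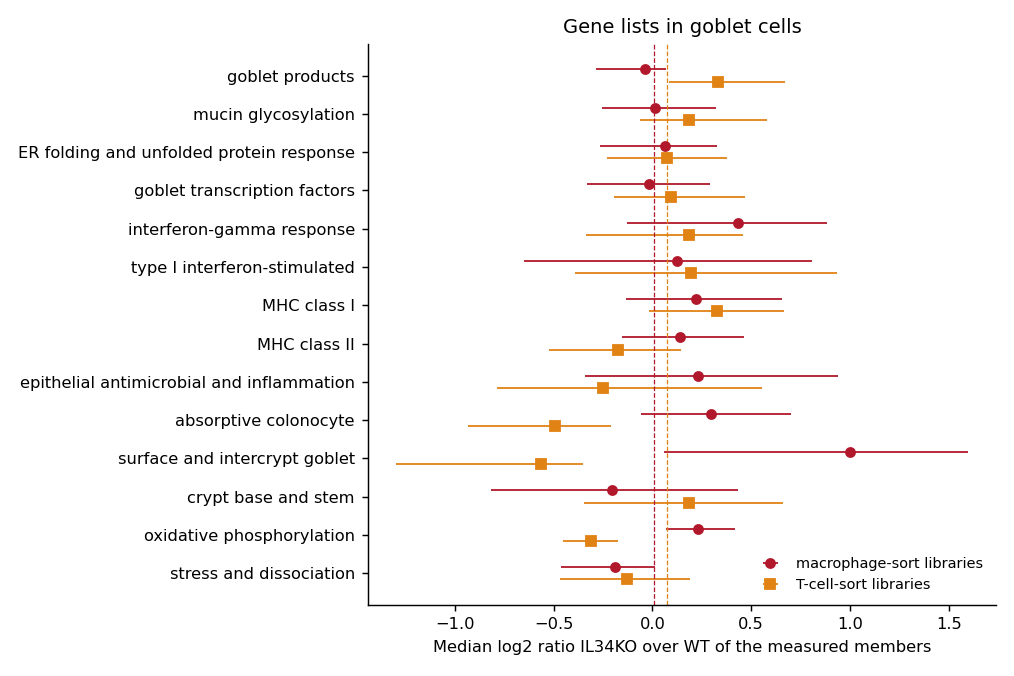
Median log2 ratio, labelled IL34KO over WT, of the measured members of 14 gene lists in goblet cells of the macrophage-sort libraries (red circles) and the T-cell-sort libraries (orange squares). Bars run between the medians of the members' lower and upper 95% counting bounds and dashed lines mark the median of all measured genes, 0.01 and 0.07; the surface, colonocyte and oxidative phosphorylation lists lie on opposite sides in the sorts.

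Antimicrobial and inflammatory genes of the epithelium had 11 of 30 measured members at least 1.5-fold higher and 6 lower in the macrophage sort, and 7 of 29 higher and 4 lower in the T-cell sort. That is 36.7% higher and 20% lower in the macrophage sort and 24.1% higher and 13.8% lower in the T-cell sort, where 12.2% and 11.8%, and 15.5% and 9.85%, of all measured genes were. The median log2 ratios had opposite signs, 0.23 (-0.34 to 0.94) in the macrophage sort and -0.25 (-0.79 to 0.56) in the T-cell sort. Slpi, a secreted protease inhibitor, rested on few cells. It stood at 61.2 CPM labelled IL34KO against 152 CPM WT in the macrophage sort, 2.48-fold lower (1.88 to 3.29), and at 346 CPM labelled IL34KO against 102 CPM WT in the T-cell sort, 3.4-fold higher (2.78 to 4.19), with 94.5% of the T-cell-sort UMIs labelled IL34KO in 3 cells. Without the 3 highest cells of each library its folds were 0.638 and 0.791. Dmbt1, a mucosal scavenger receptor, stood at 500 CPM labelled IL34KO against 203 CPM WT in the macrophage sort and at 337 CPM labelled IL34KO against 490 CPM WT in the T-cell sort.

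For the remaining lists the macrophage sort is given before the T-cell sort, and their counts are to be read against 12.2% of all measured genes higher and 11.8% lower in the macrophage sort and 15.5% higher and 9.85% lower in the T-cell sort. Notch and secretory fate genes had 2 of 15 higher and 4 lower in the macrophage sort and 2 of 15 higher and 0 lower in the T-cell sort. Crypt base and stem cell genes had 0 of 21 higher and 2 lower, and 4 of 20 higher and 2 lower. Posterior Hox genes had 3 of 12 higher and 3 lower, and 4 of 11 higher and 3 lower. Cytokine receptors had 4 of 26 higher and 3 lower, and 8 of 25 higher and 2 lower, and ion transport and mucus release genes 3 of 33 higher and 3 lower, and 8 of 34 higher and 4 lower. Cell death genes had 2 of 25 higher and 2 lower in each sort, and tight junction genes 2 of 27 higher and 2 lower, and 1 of 27 higher and 1 lower. Stress and dissociation genes had medians of -0.19 (-0.46 to 0.01) and -0.13 (-0.47 to 0.19).

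Few neutrophil genes were measured, 5 in the macrophage sort and 1 in the T-cell sort. Of the 5 in the macrophage sort 4 (80%) were at least 1.5-fold higher and 0 lower under the label IL34KO. Of all measured genes there 12.2% were higher and 11.8% lower. S100a8 stood at 31.7 CPM in goblet cells labelled IL34KO against 9.09 CPM WT in the macrophage sort, while immune cells held 2064 CPM labelled IL34KO against 759 CPM WT. S100a8 had 1 UMI labelled IL34KO and 0 UMIs WT in goblet cells of the T-cell sort. The 12 measured macrophage genes had 4 (33.3%) higher and 0 lower in the macrophage sort. In the T-cell sort they had 2 (16.7%) higher and 3 (25%) lower, where 15.5% of all measured genes were higher and 9.85% lower. The part of these RNAs in the macrophage-sort values was not tested.

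Goblet cells also differed among themselves. Cells thinned to 5000 UMIs (271 cells, 65 left out) were ranked for 2477 genes of at least 60 CPM, and Spearman correlations were taken within each library. Of 3066526 gene pairs 53 were at or above 0.5 in all 4 libraries and 1 was at or below -0.5. These values are descriptions without a p, over cells that share a library, and Muc2, Clca1, Fcgbp, Krt8 and Krt19 were also used by the gate. The pair with the highest weakest value joined Clca1 with Fcgbp, at 0.73 labelled IL34KO and 0.82 WT in the macrophage sort and 0.72 labelled IL34KO and 0.66 WT in the T-cell sort. Spink1, Tff3, Zg16, Lypd8, which holds flagellated bacteria off the surface, and the actin-severing Scin varied with the same set.

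Muc2 varied with other genes. Its correlation with Plet1, a surface protein, was 0.73 labelled IL34KO and 0.7 WT in the macrophage sort and 0.81 labelled IL34KO and 0.63 WT in the T-cell sort, and Nupr1, Klk1, Tgoln1 of the Golgi and Gfpt1, which makes the sugar precursor of O-glycans, followed. Between the sets Muc2 and Clca1 had -0.27 labelled IL34KO and -0.2 WT in the macrophage sort and -0.3 labelled IL34KO and -0.24 WT in the T-cell sort. The negative pair past -0.5 was Plet1 with Krt8. Another set joined Mptx1 with Sval1, at 0.64 labelled IL34KO and 0.8 WT in the macrophage sort and 0.63 labelled IL34KO and 0.69 WT in the T-cell sort, and Mptx1 with Reg4. Agr2 varied with Sec61b, Sec61g and Selenom of the endoplasmic reticulum, and the immediate-early genes Jun, Fos, Egr1 and Atf3 varied together.

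**Figure D5:**
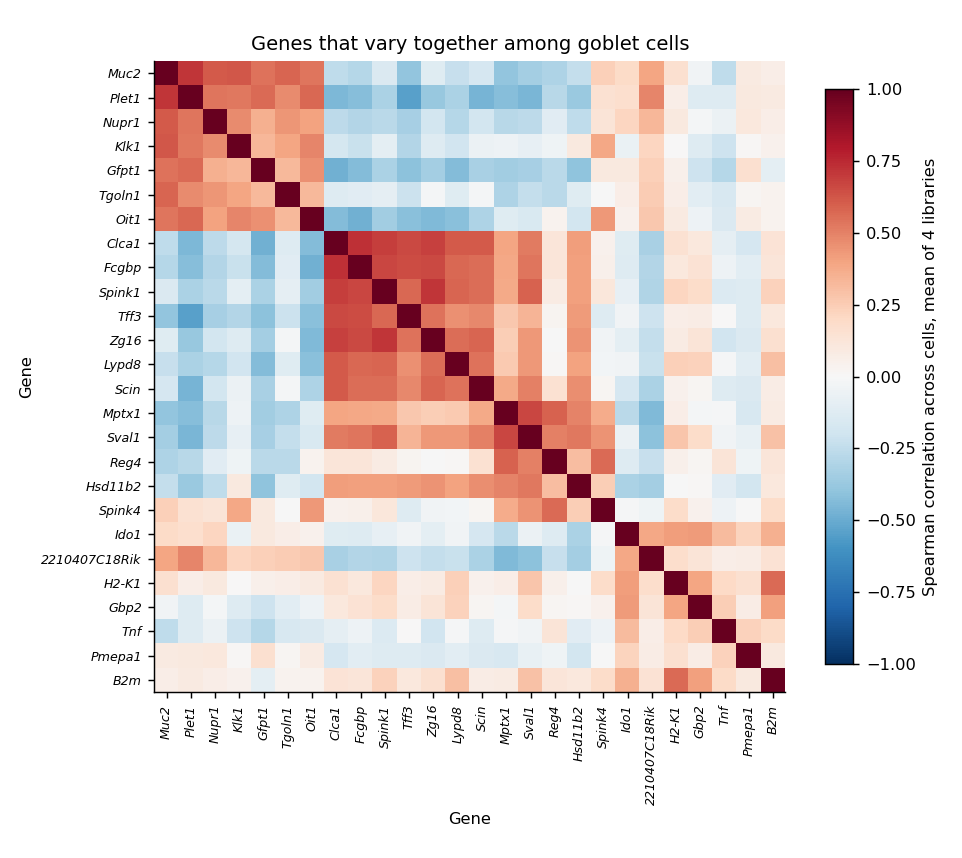
Spearman correlation across goblet cells, averaged over the 4 libraries, for 26 genes (colour from -1, blue, to 1, red). Muc2 with Plet1, Clca1 with Fcgbp, Spink1, Tff3 and Zg16, and Mptx1 with Sval1 and Reg4 form red blocks, and Sval1 also varies with the Clca1 block.

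Plet1 was also apart between the T-cell-sort libraries, at 551 CPM labelled IL34KO against 226 CPM WT, 2.43-fold higher (2.11 to 2.81), and stood at 334 CPM labelled IL34KO against 323 CPM WT in the macrophage sort. Sval1 stood at 1174 CPM labelled IL34KO against 2278 CPM WT in the macrophage sort, 1.94-fold lower (1.82 to 2.07), and at 1262 CPM labelled IL34KO against 1430 CPM WT in the T-cell sort. Its macrophage-sort log2 ratio turned to 0.19 in the cells limited in immune UMIs. Ido1 belonged to no set at 0.5: its correlation with Gbp2 was 0.69 labelled IL34KO and 0.3 WT in the macrophage sort and 0.54 labelled IL34KO and 0.28 WT in the T-cell sort.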

How the data were processed

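The authors deposited UMI counts per gene and barcode for 6 droplet libraries of sorted colon cells, 1 per group. The submitters' processing notes name Cell Ranger 7.0.1 and mm10. Per the labels' protocols both a 5′ and a 3′ kit were used, and the kit of each library is not stated. Of 32285 gene rows 78 share a symbol with another row and were kept by ID. UMIs were summed over the goblet cells of a library and scaled to CPM, with exact 95% conditional binomial (ratios), Poisson (levels) and Clopper-Pearson (shares) intervals, which cover counting error only. There is 1 library per group, so no test was run and no p-value is given. The members and lists were chosen with earlier results of these data known.

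Named genes were the 12 highest and 12 lowest in the same direction in both sorts by the smaller log2 ratio (5 CPM added, at least 20 CPM and 30 UMIs), up to 4 per list, and the goblet products and transcription factors. Genes printed outside this rule were chosen after their values were seen. Leiden clusters of goblet cells were planned and replaced by correlations within libraries. No doublet caller was used for the values reported, and leaving out the highest Scrublet scores was an alternative. Other alternatives changed the scaling (edgeR TMM, DESeq2 size factors), gates, filters, thinning and level floors. The ratio step was checked on counts simulated with Poisson error around the summed levels. No variation among cells was simulated, so the check does not cover genes with most of their UMIs in few cells. Of 50 genes simulated 4-fold higher in each comparison, 100% came out at least 2-fold higher (6302 genes run in the macrophage-sort comparison and 6352 in the T-cell-sort comparison). Of 50 simulated 2-fold higher 36% in the macrophage-sort comparison and 52% in the T-cell-sort comparison came out at least 2-fold higher, and of 50 simulated 2-fold lower (0.5-fold) 58% and 40% came out at least 2-fold lower. Python 3.11.15, numpy 2.4.6, scipy 1.17.1, scanpy 1.11.5, edgeR 4.0.16 and DESeq2 1.42.0 were used.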

Additional observations from a re-analysis of the deposited data

Results flagged for a closer look

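Several values had opposite signs in the macrophage-sort and T-cell-sort comparisons, as log2 ratios labelled IL34KO over WT, and the difference between the sorts was not tested. The surface and intercrypt goblet list had a median of 1.0 in the macrophage sort and -0.56 in the T-cell sort, and oxidative phosphorylation 0.23 and -0.31. Among single genes, Cxcl10 had 1.08 in the macrophage sort and -1.67 in the T-cell sort, Car1 had 2.51 and -0.59, Krt20 had 0.99 and -1.0, Slc26a3 had 1.01 and -1.71, and Gbp8, a guanylate-binding protein, had 1.86 and -0.65. Zg16 had -1.11 in the macrophage sort and 1.12 in the T-cell sort, and Slpi had -1.31 and 1.77.

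The goblet gate also found cells in the libraries outside these comparisons. The macrophage library of mice given marrow with spleen cells (GVHD) held 8 such barcodes, and that of mice given marrow alone held 5.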

How the results depend on the processing

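No paired analysis was possible because each group is 1 library and no test was run. Of 110 gene ratios 56 kept 1 sign in every alternative that gave them a value, and of 28 list medians 9 did. The log2 ratio of Ido1 ranged over 1.62 to 2.61 in the macrophage sort and 0.92 to 1.66 in the T-cell sort, that of Slfn4 over 0.82 to 3.66 and 0.78 to 4.07, that of Muc2 over 0.38 to 0.76 and 0.35 to 0.8, and that of Pcdh17 over -4.23 to -2.2 and -3.18 to -0.59. Muc2 is a gene of the gate, so its range describes cells that were chosen on it. Another scaling moved the median of all genes by less than 0.1. The cause of the changes below was not tested. The number of genes tested moves with the setting and is not given for the counts below, so they are no shares of genes. Counts of genes at least 2-fold apart, higher and then lower under the label IL34KO, were 519 and 495 in the macrophage sort and 601 and 431 in the T-cell sort at a floor of 5 CPM, which tests more genes, and 20 and 20, and 46 and 22, at 50 CPM. In the same order they were 280 and 305, and 483 and 172, with cells weighted equally, 854 and 1059, and 994 and 602, with cells thinned to 2000 UMIs, 339 and 247, and 349 and 210, with stricter filters (1000 genes, 5% mitochondrial), and 903 and 1043, and 603 and 304, with at most 2 immune UMIs, both of which use fewer cells. With looser filters (200 genes, 20%) 65 were higher in the macrophage sort and 68 higher and 51 lower in the T-cell sort, and a gate of 0.2% of UMIs gave 140 lower in the macrophage sort. With cells weighted equally the macrophage-sort log2 values were 0.074 for goblet products, -0.998 for Reg3g and -0.58 for Dpf3, and oxidative phosphorylation had -0.46 in the T-cell sort. A gate of 0.2% gave goblet products 0.13 in the macrophage sort, and a gate of 5 UMIs gave Car1 0.22 in the T-cell sort. Thinning gave goblet products 0.201, the surface goblet list -0.39, stress genes -0.54, Reg3g -1.07 and Gal3st2c 0.0048 in the macrophage sort, and the surface goblet list -0.28, Gal3st2c 0.16 and Per2 0.58 in the T-cell sort. Looser filters gave goblet products 0.094, colonocyte genes -0.62, the surface goblet list -0.38, Reg3g -0.043, Car1 -1.68, Cyp2c55 -1.4, Krt20 -0.95 and Slc26a3 -1.56 in the macrophage sort, and colonocyte genes -0.14, the surface goblet list -0.29 and Car1 0.46 in the T-cell sort. Stricter filters gave MHC class I -0.14, the surface goblet list -0.086, stress genes 0.11, Timp3 0.46, Clca1 -0.19, Gbp2 -0.17, Krt20 -0.703 and Slc26a3 -0.086 in the macrophage sort, and colonocyte genes 0.15, the surface goblet list -0.28, Gbp2 -0.17, Krt20 0.15 and Car1 1.18 in the T-cell sort. At most 2 immune UMIs gave goblet products 0.48, the surface goblet list -0.12, oxidative phosphorylation -0.053, stress genes -0.699, Cxcl9 -1.16, Cxcl10 -2.26, Hoxb13 0.54, Zg16 1.19, Sval1 0.19 and Ubxn6 -2.04 in the macrophage sort. The same limit in the T-cell sort gave interferon-γ genes 0.49, colonocyte genes 0.35, the surface goblet list 0.26, Per2 0.078, Mt2 0.18, Gbp8 0.69, Slpi -2.48, Krt20 0.29, Slc26a3 0.26 and Car1 1.27. Without the 3 highest cells of each gene, an alternative chosen after seeing the data, Slpi had -0.34 in the T-cell sort and Muc3 0.53 in the macrophage sort. Goblet shares of epithelial cells were 34.7% labelled IL34KO and 46.9% WT in the macrophage sort and 26.7% labelled IL34KO in the T-cell sort among cells of 5000 UMIs, also chosen after seeing the data. They were 16.7% labelled IL34KO in the macrophage sort and 22.4% labelled IL34KO and 16.4% WT in the T-cell sort with at most 2 immune UMIs, 11.9% labelled IL34KO and 15% WT in the T-cell sort with looser filters, and 31.5% labelled IL34KO in the macrophage sort and 27.9% labelled IL34KO and 25.5% WT in the T-cell sort with stricter ones.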

Other observations

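Npas2 and Per2, given above, belong to the circadian clock, and other clock genes were then read, chosen after these values were seen. Those below are only a part of the clock genes read. Per3, Cry2, Nr1d2, Tef, Hlf, Ciart, Bhlhe40, Bhlhe41 and Nfil3 were also read and are not given, so no pattern of the clock is read from the part below. The levels below carry no interval, and a joint change of clock genes was not tested. Arntl, which encodes BMAL1, stood at 34 CPM labelled IL34KO against 20.2 CPM WT in the macrophage sort and at 44.5 CPM labelled IL34KO against 25.4 CPM WT in the T-cell sort. Per1 stood at 15.9 CPM labelled IL34KO against 25.3 CPM WT in the macrophage sort and at 21.8 CPM labelled IL34KO against 28.6 CPM WT in the T-cell sort. Nr1d1, the repressor REV-ERBα, stood at 27.2 CPM labelled IL34KO against 50.5 CPM WT in the macrophage sort and at 35.4 CPM labelled IL34KO against 38.9 CPM WT in the T-cell sort. Dbp, a clock output factor, had 2 UMIs labelled IL34KO and 6 UMIs WT in each sort. Clock stood at 77.8 CPM labelled IL34KO against 75.8 CPM WT in the macrophage sort and at 62.6 CPM labelled IL34KO against 91.3 CPM WT in the T-cell sort. Cry1 stood at 19.6 CPM labelled IL34KO against 19.2 CPM WT in the macrophage sort and at 39 CPM labelled IL34KO against 31.8 CPM WT in the T-cell sort. The labels do not give the time of day of tissue collection.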
